A study of Danio rerio with 4 samples.

Results

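Gata1+ cells of control zebrafish embryos were compared between 24 and 48 hours post fertilization (hpf), the period in which the first red cells enter the circulation and fill with hemoglobin. The comparison takes the 2 control libraries of the 4 in the series and joins them gene by gene. Of the 14417 genes measured, 11971 averaged 1 FPKM or more across the 4 libraries and are compared here. The embryos carried gata1:GFP, a transgene in which the promoter of the red cell regulator gata1 drives green fluorescent protein. Controls had received a standard morpholino oligonucleotide (MO) at the one-cell stage, so both stages come from injected embryos, and fluorescent cells were collected by flow cytometry. The other 2 libraries come from embryos of the same line injected with an MO against foxo3b, at the same stages. How many embryos or sorts went into a library is not given in the labels. There was 1 library at each stage, so no spread between replicates is known, no test was run, and each difference below describes these libraries.

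The first red cells of the zebrafish arise in the embryo from mesoderm of the intermediate cell mass, under the transcription factors Gata1, Tal1 and Klf1. They mature together in the blood, taking up iron, making heme in mitochondria and filling with embryonic globins, while the membrane gains its anion exchanger, spectrin and ankyrin skeleton. Maturing red cells also leave the cell cycle and reduce ribosome production. Genes for the alpha and beta chains of zebrafish hemoglobin lie side by side, and distinct members of the family are used in embryo, larva and adult.

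Values are FPKM, fragments scaled by transcript length and by sequencing depth, as the authors deposited them. A log2 fold is the log2 of (FPKM + 1) at 48 hpf over (FPKM + 1) at 24 hpf, which understates differences of genes with low values. FPKM summed to 2288669 at 24 hpf and 2402299 at 48 hpf over all genes, and 938 and 748 genes were listed at 0. The files hold no read counts, so absolute depth is unknown. Steps in the lowest values put the depth of the 48 hpf library at 0.711 of that at 24 hpf. The 10 most abundant genes held 24.5% of the total at 24 hpf and 37.4% at 48 hpf.

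Markers of red cells were present at both stages but did not dominate either library. Values were given for 7 embryonic globin genes, and together they made up 0.761% of total FPKM at 24 hpf and 1.34% at 48 hpf. Other embryonic globin genes that were looked for had no values under those names. The reporter's own gene, gata1a, stood at 8.23 FPKM and 2.49 FPKM. Genes of other tissues were abundant in both libraries. Genes of yolk, liver and lipid transport made up 7.67% of the total at 24 hpf and 9.53% at 48 hpf, most of it from the fatty acid binding gene fabp1b.1. Epidermal genes made up 1.3% and 1.83%, and muscle genes 0.903% and 3.13%. No gene of the muscle, neuronal, pigment or endothelial lists was listed at 0 in either library. These are bulk samples of sorted cells, in which fewer cells of a type and less RNA per cell cannot be told apart. The part of other tissues in the differences below was not tested.

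More genes stood higher at 48 hpf than lower. Of those compared, 2509 genes (21.0%) were higher by 2-fold or more and 1047 genes (8.75%) were lower by 2-fold or more, while 8415 lay in between. In the gene lists below, a member is counted as higher or lower only past this 2-fold line. A list with shares near 21.0% higher and 8.75% lower matches all genes in this count. On the deposited scale the asymmetry grew with the size of the difference. By 4-fold or more 835 genes were higher and 161 lower, and by 16-fold or more 94 were higher and 9 lower. These larger differences were not counted under other scalings. Lens crystallins, many of them at a shared locus with uncertain values, are among the 94. Many genes lie close to the 2-fold line, 923 of them within 0.1 log2 of it. Over all genes the median log2 fold came to 0.18. Where 0 lies depends on the scale, since ribosomal protein genes alone made up 56.6% of the total at 24 hpf and 44.7% at 48 hpf. Within these shares most genes were lower at 48 hpf, while zgc:77235 (now rpl27a) stood at 93455 and 307548 FPKM. Scaling by the median of gene ratios moved the median of all genes to -0.04 and gave 2029 higher and 1570 lower genes. Equal totals left 2271 higher and 1141 lower, and equal totals without the ribosomal proteins gave 1731 higher and 2060 lower, with a median of -0.19. A gene list is therefore read against the median of all genes.

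**Figure D1:**
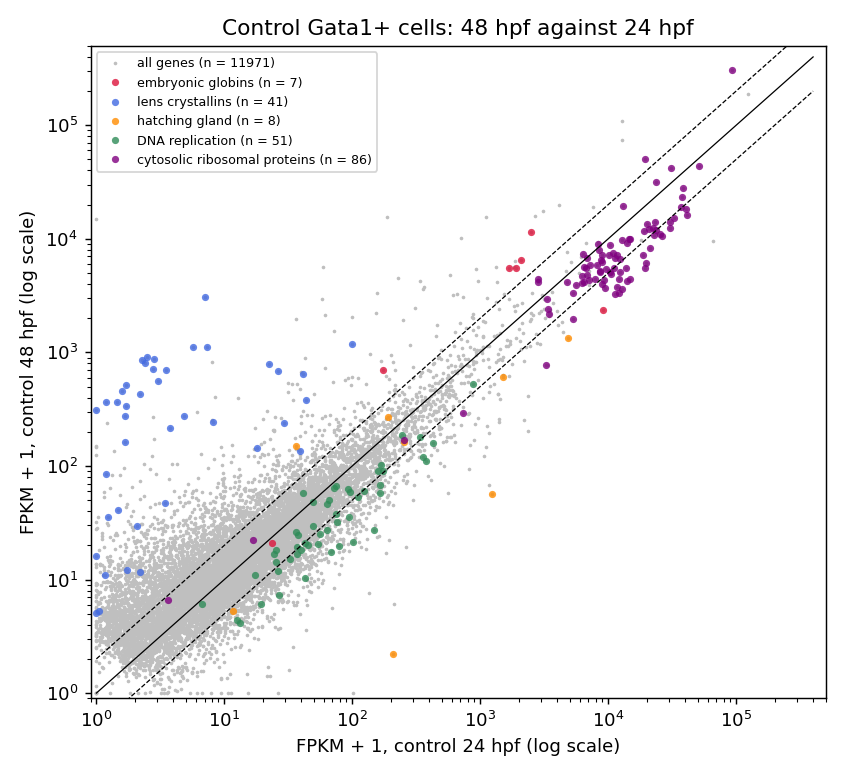
FPKM + 1 of each of 11971 genes in the control library at 24 hpf (x axis, log scale) and at 48 hpf (y axis, log scale), with 5 gene lists in colour, equality as a solid line and 2-fold differences as dashed lines. Lens crystallins lie far above the line, DNA replication genes mostly below it, and the hatching gland gene he2 lies far below it, at 205 FPKM against 1.22 FPKM.

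The globin genes differed most in their balance. Of 7 embryonic globin genes 5 were higher at 48 hpf and 1 lower, and the list median was 1.65. The alpha globin gene hbae3 (chromosome 3, 55998281 to 55999403, in the Zv9 build) stood at 2485 FPKM at 24 hpf and 11506 FPKM at 48 hpf, which is a log2 fold of 2.21. The beta globin gene hbbe2, on chromosome 12 at 21702359 to 21703066, stood at 172 and 697 FPKM. Its neighbour hbbe3, at 21691961 to 21693036 on the same chromosome, went the other way, from 9075 to 2340 FPKM, a log2 fold of -1.96. These neighbouring genes thus differed in opposite directions, and the ratio of hbbe3 to hbbe2 was 52.8 at 24 hpf and 3.36 at 48 hpf.

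Further beta and alpha globin genes fall in one 5-gene locus of chromosome 3, which makes their single values uncertain. There hbbe1.1 stood at 1663 FPKM and 5585 FPKM, LOC573653 (now hbbe1.3) at 2080 and 6508 FPKM, and hbae1 at 1907 and 5589 FPKM. All of these were higher at 48 hpf, with log2 folds of 1.75, 1.65 and 1.55. The remaining embryonic alpha globin gene with values, zgc:163057 (now hbae4), stood at 22.7 FPKM and 20.1 FPKM. Over the 4 genes at loci of their own the median log2 fold was 0.92.

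Among the embryonic beta globin genes with values, hbbe3 made up 69.9% of the FPKM at 24 hpf and 15.5% at 48 hpf. Over the same stages hbbe1.3 went from 16% to 43.0%, hbbe1.1 from 12.8% to 36.9% and hbbe2 from 1.32% to 4.6%. The summed beta genes stood at 12991 FPKM and 15129 FPKM, and the summed alpha genes at 4415 FPKM and 17115 FPKM. The ratio of alpha to beta FPKM was accordingly 0.340 at 24 hpf and 1.13 at 48 hpf. Such a ratio of values per length within a library does not depend on how libraries are scaled. The shares and the ratio do rest in part on hbbe1.3, hbbe1.1 and hbae1, whose single values are uncertain at their shared locus. They also leave out embryonic globin genes without values. Of 4 adult globin genes only zgc:92880 (now hbba2) had a mean over 1 FPKM, at 4.56 FPKM and 0.529 FPKM, and ba1, hbaa1 and si:ch211-5k11.6 stood below 1 FPKM at both stages.

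Genes of heme synthesis tended the other way. Of 18 genes 1 was higher and 7 lower, with a median log2 fold of -0.37. The lower genes included 3 enzymes that build and modify the porphyrin ring. Coproporphyrinogen oxidase, cpox, stood at 53.1 FPKM and 9.14 FPKM, uroporphyrinogen decarboxylase, urod, at 132 and 37.6 FPKM, and hydroxymethylbilane synthase, hmbsa, at 44.8 and 17.7 FPKM, with log2 folds of -2.42, -1.78 and -1.30. The mitochondrial glycine carrier slc25a38a stood at 3.45 and 0.647 FPKM. By contrast alas2, the erythroid enzyme that starts the pathway, stood at 36.8 FPKM and 56.0 FPKM, a log2 fold of 0.59, and its housekeeping counterpart alas1 at 35.3 and 16.7 FPKM. The porphyrin transport gene tmem14c stood at 321 and 159 FPKM, and its paralog zgc:103519 (now tmem14cb) at 9.22 and 20.2 FPKM. Ferrochelatase, fech, which inserts the iron, stood at 10.4 and 6.97 FPKM.

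Genes of the red cell membrane and of gas transport had a median log2 fold of 0.87, with 7 of 18 higher and 1 lower. The ammonium and gas channel gene rhag stood at 16.2 FPKM and 139 FPKM, a log2 fold of 3.02, and the red cell carbonic anhydrase gene cahz at 46.7 and 223 FPKM. In the skeleton under the membrane, the ankyrin gene ank1 stood at 42.1 and 111 FPKM and the dematin gene epb49 at 5.67 and 18.7 FPKM, while the beta spectrin gene sptb stood at 19.2 and 22.5 FPKM. The anion exchanger gene slc4a1a, for the most abundant protein of the red cell membrane, stood at 24.1 and 63.2 FPKM, a log2 fold of 1.36. The water channel gene aqp1a.1 stood at 42.6 and 91.7 FPKM and xk, a membrane transporter gene, at 1.51 and 5.67 FPKM. The exception was the glucose transporter gene slc2a1a, at 34.3 and 12 FPKM.

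**Figure D2:**
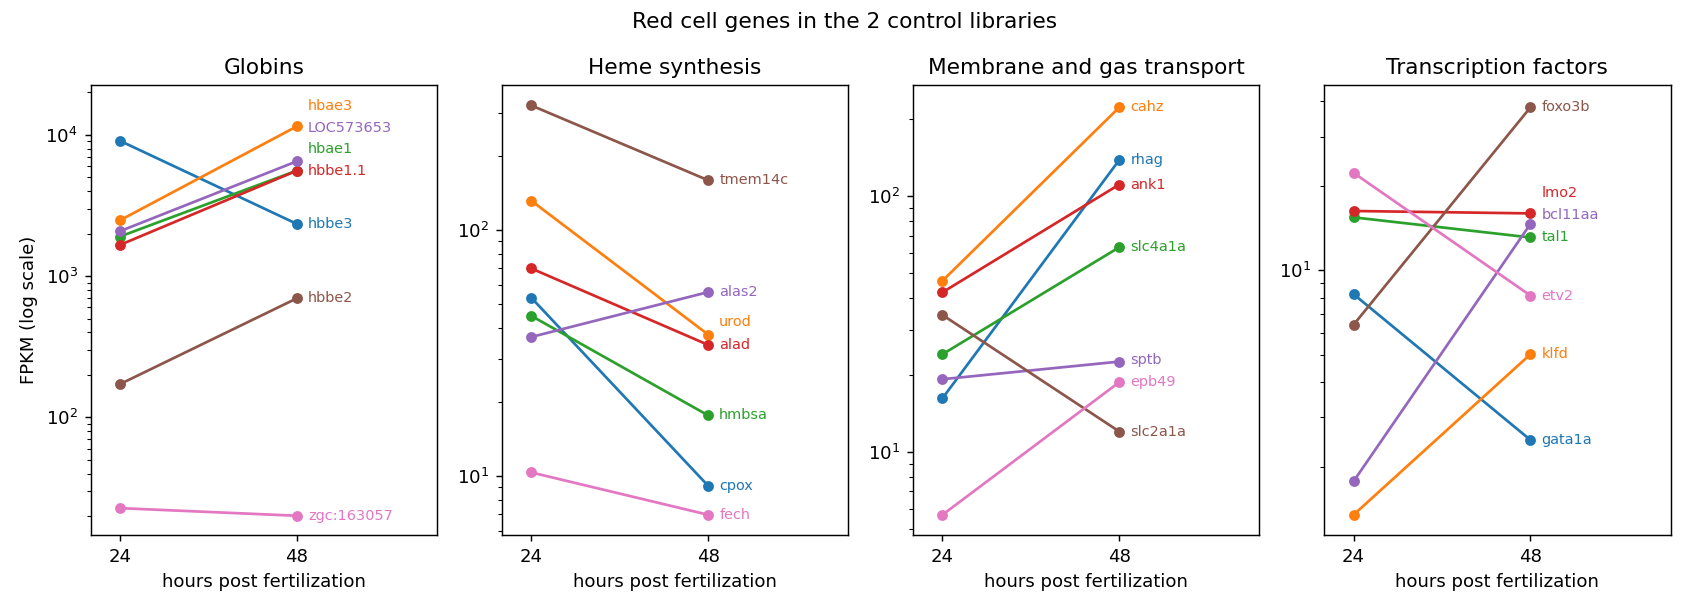
FPKM (log scale) of red cell genes in the control libraries at 24 and 48 hpf, in panels for globins, heme synthesis, membrane and gas transport, and transcription factors. Points are single libraries; hbbe3 lies lower at 48 hpf and hbae3 and hbbe2 higher, and rhag and cahz lie higher at 48 hpf while cpox and urod lie lower.

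The transcription factors of the red lineage showed no common direction. Of 18 genes 4 were higher and 1 lower, which is 22.2% and 5.56%, against 21.0% and 8.75% of all genes. Their median log2 fold was 0.13. It turned negative under median-ratio scaling (-0.09) and under equal totals without ribosomal proteins (-0.23). The lower gene was gata1a, with a log2 fold of -1.40. Its partners tal1 and lmo2 stood at 15.5 and 13.1 FPKM and at 16.3 and 16 FPKM. The gene klfd, now klf1, which drives globin and membrane genes, stood at 1.35 FPKM and 5.03 FPKM, a log2 fold of 1.36. The gene bcl11aa, known in mammals as a repressor of embryonic and fetal globins, stood at 1.77 and 14.7 FPKM, a log2 fold of 2.5. The cofactor gene ldb1a stood at 36.7 and 102 FPKM and its paralog ldb1b at 119 and 118 FPKM. The FOXO factor foxo3b, on chromosome 20 at 32325663 to 32371617, stood at 6.4 and 38.1 FPKM, a log2 fold of 2.4.

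Genes of blood and vessel progenitors had a median of -0.29 over 14 of 17 genes, with 1 higher and 3 lower. The factor gene etv2, which starts blood and vessel fates, stood at 22.3 FPKM and 8.14 FPKM. The genes hhex and mycb stood at 32.1 and 13.1 FPKM and at 30.2 and 14.2 FPKM. The value of hhex is uncertain, since its locus is listed on only 335 bases. The receptor gene kita was the higher one, at 2.68 and 7.50 FPKM, and meis1 stood at 83.8 and 85.3 FPKM. The 3 genes below the mean of 1 FPKM all had the larger value at 48 hpf.

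Iron genes also differed member by member. Their median log2 fold was 0.67 over 14 genes, with 4 higher and 2 lower. The transferrin receptor gene tfr1b, one of a pair of such genes in zebrafish, stood at 3.86 and 11.3 FPKM, and the ferritin genes zgc:198419 (now fthl28) and fth1b at 8.38 and 39.4 FPKM and at 8.98 and 22.9 FPKM. In contrast the main ferritin gene by level, fth1a, stood at 1201 FPKM and 502 FPKM, and slc11a2, the gene of the endosomal iron transporter, at 35.9 and 11.0 FPKM. Transferrin itself, tfa, a plasma protein gene of the liver, stood at 1098 and 1846 FPKM.

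Genes of the cell cycle tended to be lower at 48 hpf. A negative log2 fold of any size was seen in 50 of 51 replication genes and 43 of 46 genes of mitosis and cyclins. Over all genes the median was 0.18, so most genes of the comparison lay above 0 on this scale. Under equal totals without ribosomal proteins that median was -0.19, and the share of all genes below 0 was not counted. Of 51 DNA replication genes 27 were lower and none higher, with a median log2 fold of -1.03. The helicase genes mcm7 and mcm4 stood at 148 FPKM and 26.4 FPKM and at 101 FPKM and 20.5 FPKM; mcm7 shares a locus of 4 genes. The polymerase gene pole2 stood at 41.9 and 9.32 FPKM, the licensing inhibitor gene gmnn at 78.0 and 18.7 FPKM, and the most abundant member, the sliding clamp gene pcna, at 875 and 521 FPKM. Of 46 genes of mitosis and cyclins 19 were lower, with a median of -0.93. The kinase gene aurkb stood at 161 and 42.5 FPKM, the spindle gene prc1a at 51.1 and 12.4 FPKM and the checkpoint gene mad2l1 at 249 and 74.3 FPKM. The single member higher was the cyclin D gene ccnd2a, at 27.7 and 66 FPKM.

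Genes for making ribosomes and RNA followed the same direction. Of 43 ribosome biogenesis genes 18 were lower and none higher, with a median of -0.86. The nucleolar RNA-protein gene nola1 (now gar1) stood at 208 FPKM and 44.4 FPKM, fbl, for the methylase fibrillarin, at 455 and 137 FPKM, ncl, for nucleolin, at 544 and 164 FPKM, and npm1a, for nucleophosmin, at 540 and 250 FPKM. Of 58 genes of splicing and RNA binding 22 were lower and 1 higher, with a median of -0.65. The gene hnrnpa1, for an RNA-binding protein, had the lowest log2 fold of these, -2.90, at 1099 and 146 FPKM, and the spliceosome core gene snrpb stood at 825 and 151 FPKM.

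In cytosolic ribosomal protein genes, the most abundant group, 31 of 86 were lower and 2 higher, and the median log2 fold was -0.71. Among the lower were rpl22l1, at 3257 FPKM and 775 FPKM, and rps20, at 12132 FPKM and 3363 FPKM. Those 2 higher members were among the most abundant, zgc:77235 (now rpl27a) at 93455 and 307548 FPKM and rpl38 at 19568 and 50718 FPKM. Mitochondrial ribosomal protein genes lay closer to the other genes, at -0.17 over 66 genes, with 5 lower and none higher. The share lower was 7.58%, against 8.75% of all genes, while 21.0% of all genes were higher. Translation factors and tRNA synthetases had a median of -0.22 over 89 genes, with 12 lower and 4 higher. Here eif3hb, for a subunit of initiation factor 3, stood at 41.7 FPKM and 885 FPKM, a log2 fold of 4.37, and the elongation factor gene eef1a1l1 at 7122 and 3944 FPKM. The proteasome genes had a median of -0.25, with 5 of 39 lower and none higher.

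**Figure D3:**
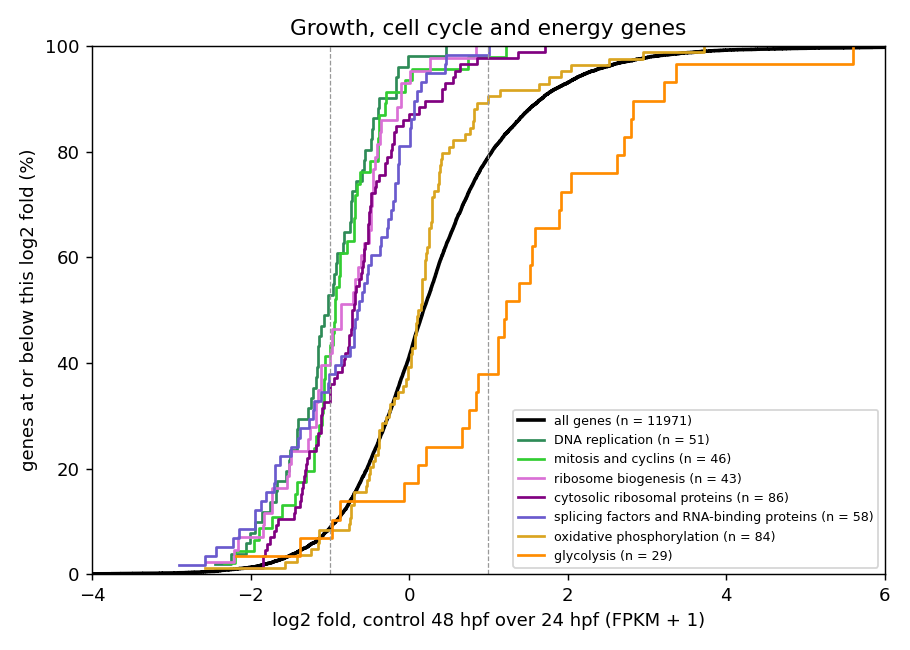
Cumulative share (y axis, %) of genes at or below a given log2 fold of control 48 hpf over 24 hpf (x axis) for all 11971 genes and 7 gene lists, with dashed lines at 2-fold. The curves for replication, mitosis, ribosomal and splicing genes lie left of that of all genes, whose median is 0.18, and the glycolysis curve lies right of it, with a median of 1.23.

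Glycolysis genes stood higher at 48 hpf. Of 29 genes 18 were higher and 2 lower, with a median log2 fold of 1.23. The muscle-type phosphofructokinase genes pfkma and pfkmb stood at 1.36 FPKM and 23.2 FPKM and at 3.04 FPKM and 36.6 FPKM, the enolase gene eno2 of neurons at 3.73 and 32.6 FPKM, and the lactate dehydrogenase gene ldha at 38.7 and 274 FPKM. Pyruvate kinase differed by gene: pkm2b (now pkmb) stood at 7.39 FPKM and 406 FPKM, a log2 fold of 5.60, and pklr, the form used in liver and red cells, at 78.2 FPKM and 16.4 FPKM, a log2 fold of -2.19. The other gene lower was the hexokinase gene hk2, at 13 and 4.40 FPKM. Over the same stages the 48 muscle genes summed to 20664 FPKM and 75239 FPKM and the 33 neuronal genes to 917 FPKM and 4017 FPKM. Of the neuronal sums, fabp7a alone held 306 and 2457 FPKM. The part of muscle and neuronal cells in the glycolysis values was not tested.

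Genes of oxidative phosphorylation were spread on both sides, with 8 of 84 higher, 7 lower and a median of 0.13, which turned negative under median-ratio scaling (-0.12) and under equal totals without ribosomal proteins (-0.29). The respiratory chain subunit genes ndufa4 and cox5b2 stood at 10.5 and 151 FPKM and at 2.42 and 25.5 FPKM, and atpif1, for an inhibitor of ATP synthase that red cells need for heme synthesis in zebrafish, at 1171 FPKM and 195 FPKM. Among mitochondrial carriers, 8 of 46 were higher and 4 lower, with a median of 0.40. Their shares, 17.4% and 8.70%, were no larger than the 21.0% and 8.75% of all genes. The adenine nucleotide carrier gene slc25a4, used in muscle and heart, had the highest log2 fold of these, 6.69, at 6.97 and 821 FPKM, while the ubiquitous slc25a5 stood at 4708 and 5186 FPKM.

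Antioxidant enzyme genes had a median of -0.01 over 27 genes, with 5 higher and 1 lower. These are 18.5% and 3.70%, against 21.0% and 8.75% of all genes. The mitochondrial superoxide dismutase gene sod2 stood at 5.25 FPKM and 77.9 FPKM and the catalase gene cat at 4.26 and 33.9 FPKM, with log2 folds of 3.66 and 2.73. The peroxiredoxin genes prdx6 and prdx1 stood at 47.7 and 144 FPKM and at 103 and 268 FPKM. The lower gene was glrx5, for a glutaredoxin needed to make iron-sulfur clusters, at 152 and 70.9 FPKM. Genes of mitophagy and autophagy had a median of 0.45, which was 0.05 under equal totals without ribosomal proteins. Of 25 genes 6 were higher (24%) and 1 lower (4%), against 21.0% and 8.75% of all genes. The gene bnip3, for a mitophagy receptor, stood at 1.14 and 5.11 FPKM. Heat shock and unfolded protein genes had a median of -0.12, with 5 of 27 lower and 2 higher. Of these the small heat shock gene hspb1 stood at 525 and 98.8 FPKM, hsp90aa1.1 at 588 and 178 FPKM, and hspa5, for the chaperone of the endoplasmic reticulum, at 271 and 111 FPKM. Genes of the damage response had a median of -0.00 with 3 of 22 higher and 4 lower, among them the cyclin G gene ccng2 at 24.1 and 101 FPKM. The hypoxia genes had a median of 0.70 with 3 of 12 higher (25%, against 21.0% of all genes) and none lower. Short of the 2-fold line, vegfaa, for a vessel growth factor, stood at 6.48 and 12.5 FPKM, a log2 fold of 0.85.

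Genes of the growing tail bud and of segmentation tended to be lower at 48 hpf. Of 25 genes 13 were lower and none higher, with a median of -1.15, or -0.60 with a pseudocount of 5 FPKM. The mesoderm gene msgn1 stood at 20.7 FPKM and 0.415 FPKM, a log2 fold of -3.94, and the posterior homeobox gene cdx4 at 21.0 and 0.703 FPKM, a log2 fold of -3.69. The somite border gene ripply1 stood at 18.2 and 11.3 FPKM, the tail bud and notochord gene ntla (now tbxta) at 14.1 and 2.22 FPKM, and the clock gene her1 at 3.57 and 0.0756 FPKM. The mesp gene mespaa was listed at 2.58 FPKM and at 0. The most abundant member, sox3, also a neural gene, stood at 216 and 57.2 FPKM.

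Hox genes, which give position along the body axis, had a median of 0.37, which turned to -0.03 under equal totals without ribosomal proteins. Of 48 genes 7 were higher and 2 lower. The lower pair were the anterior genes hoxb1a, at 14.2 and 2.77 FPKM, and hoxb1b, at 38.2 and 14.5 FPKM. Among the higher, hoxa5a stood at 6.70 and 19.9 FPKM and hoxa13b at 2.71 and 8.55 FPKM. Of 31 Notch pathway genes 7 were lower and 3 higher, with a median of -0.15; her8a stood at 27.7 and 4.55 FPKM and hes2.2 at 2.34 and 14.6 FPKM. Of 59 Wnt, Fgf, Bmp and Hedgehog ligand genes 15 were higher and 4 lower, with a median of 0.43. Those shares, 25.4% and 6.78%, lay near the 21.0% and 8.75% of all genes. The ligand median was 0.07 under equal totals without ribosomal proteins. The gene wnt9a stood at 1.59 and 12.3 FPKM.

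Genes of lens, neurons and retina mostly stood higher, some by the largest amounts in the comparison. Not all tissue lists did. Kidney genes had a median log2 fold of -0.24, with 1 of 14 higher and 1 lower. Lens crystallins, the transparent proteins of the eye lens, summed to 370 FPKM at 24 hpf and 19188 FPKM at 48 hpf, or 0.016% and 0.799% of the totals. All 41 crystallin and lens genes that averaged 1 FPKM or more were higher, and their median log2 fold was 5.84, or 3.91 with the genes below that mean included. Low genes can reach that mean only by being high in some library, so the other 17 are given too: 9 had the larger value at 48 hpf, 4 the larger at 24 hpf, and 4 were at 0 at both stages. Over the 21 lens genes at loci of their own the median was 3.78. Of these the beta crystallin gene cryba4 stood at 98.3 and 1185 FPKM, the alpha crystallin gene cryaa at 0.730 and 11.2 FPKM, and the lens water channel gene mipa at 2.44 and 46.1 FPKM. The gamma M crystallin crygm2d10 stood at 3100 FPKM at 48 hpf, a log2 fold of 8.79, but shares a locus of 25 genes, so this value is uncertain.

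Neuronal genes had a median log2 fold of 1.91, with 25 of 32 higher and none lower. The brain fatty acid binding gene fabp7a stood at 306 FPKM and 2457 FPKM, the synaptic vesicle gene syt1a at 2.44 and 28.9 FPKM, the GABA synthesis gene gad2 at 0.935 and 16.4 FPKM, and the pan-neuronal gene elavl3 at 30.5 and 78.7 FPKM. Retina genes had a median of 1.97 with 16 of 21 higher and none lower, and 11 more were below 1 FPKM on average. Of these 7 had the larger value at 48 hpf, 3 the larger at 24 hpf, and 1 was at 0 at both stages; with them the median was 0.96. The retinal factor genes vsx1 and nr2e3 stood at 1.91 and 84.8 FPKM and at 0.668 and 19.6 FPKM. Proneural genes had a median of 0.40, and one of -0.0007 under equal totals without ribosomal proteins; atoh7, which starts retinal ganglion cells, stood at 0.111 and 24.9 FPKM, and the progenitor gene sox19a at 121 and 37.9 FPKM.

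Muscle genes were found on both sides of the 2-fold line. Of 48 genes 23 were higher and 5 lower, with a median of 0.83. The parvalbumin genes pvalb2, pvalb1 and pvalb4, for calcium buffers of fast fibres, stood at 1112 and 15493 FPKM, at 226 and 4529 FPKM and at 70.8 and 1546 FPKM. The fast troponin gene tnnt3b stood at 153 and 2226 FPKM. In the other direction, the factor gene myog, which starts fibre differentiation, stood at 77.8 and 10.1 FPKM. The sarcomere assembly gene smyd1b stood at 162 and 23.4 FPKM. Outside the list, the troponin gene tnnt1, named because its log2 fold was among the 15 lowest, stood at 558 and 56.3 FPKM. The cardiac hormone gene nppa stood at 0.710 and 42.6 FPKM.

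Skin, pigment and matrix genes differed member by member. Pigment genes had a median of 1.04 with 12 of 24 higher and 2 lower; the melanin enzyme gene tyrp1b stood at 26.5 and 266 FPKM and the pteridine gene gch2 at 97.8 and 611 FPKM, while the purine synthesis gene gart stood at 130 and 21.8 FPKM. Epidermal genes had a median of -0.10, with 7 of 30 higher and 4 lower. These are 23.3% and 13.3%, against 21.0% and 8.75% of all genes. The keratin gene zgc:92533 (now krt91) stood at 98.0 and 2050 FPKM, and zgc:109868 (now krt92), which shares a locus of 2 genes, at 811 and 93.3 FPKM. Genes of notochord, cartilage and matrix had a median of 0.54, with 11 of 33 higher and 5 lower. The fin fold genes and2 and and1, for the actinodin fibres of the larval fin, stood at 1.75 and 268 FPKM and at 5.54 and 127 FPKM, the cartilage gene matn3a at 0.142 and 52.8 FPKM, and the collagen gene col8a1a at 70.4 and 7.43 FPKM.

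The hatching gland, which releases the enzymes that dissolve the egg envelope, had the lowest median log2 fold of the tissue lists shown in the plot of list members. Its 8 genes summed to 8303 FPKM at 24 hpf and 2587 FPKM at 48 hpf, with a median of -1.21, 5 lower and 1 higher. The hatching enzyme gene he2 had one of the lowest log2 folds of the comparison, -6.54, at 205 and 1.22 FPKM. Its relatives he1b and he1a stood at 4864 and 1334 FPKM and at 1504 and 610 FPKM, and the gland protease gene ctsl1b at 1241 and 55.1 FPKM. Outside the list, the cathepsin genes ctsll and ctsh stood at 212 and 5.05 FPKM and at 182 and 16.3 FPKM. Both were named because their log2 folds were among the 15 lowest, so their direction adds nothing on the gland.

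Of other blood and vessel cells, myeloid genes had a median of 0.05, with 6 of 31 higher and 3 lower. Those shares, 19.4% and 9.68%, lay near the 21.0% and 8.75% of all genes. The myeloid median turned to -0.11 under median-ratio scaling and -0.21 under equal totals without ribosomal proteins. Single members stood far apart: the lysozyme gene lyz of neutrophils and macrophages at 33.3 and 382 FPKM, LOC100151049 (now laptm5) at 6.97 and 255 FPKM, and the protease gene ctssb.1 at 192 and 21.1 FPKM. Endothelial genes had a median of -0.24 with 2 of 24 higher and 3 lower; the junction gene cdh5 stood at 6.67 and 21.1 FPKM and the apelin receptor gene aplnrb at 13.3 and 4.40 FPKM. Thrombocyte genes, which a gata1 reporter can also mark, had a median of 0.76 over 10 genes, with 4 higher and 1 lower, and one of 0.16 with the 4 genes below 1 FPKM on average included. The integrin gene itgb3a stood at 5.84 and 28.5 FPKM, and the most abundant member, cd9b, at 237 and 138 FPKM. Summed over the thrombocyte list, FPKM came to 290 at 24 hpf and 229 at 48 hpf. Lymphoid genes were low, with 5 of 15 averaging 1 FPKM or more and cd8a and itk at 0 at 24 hpf.

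**Figure D4:**
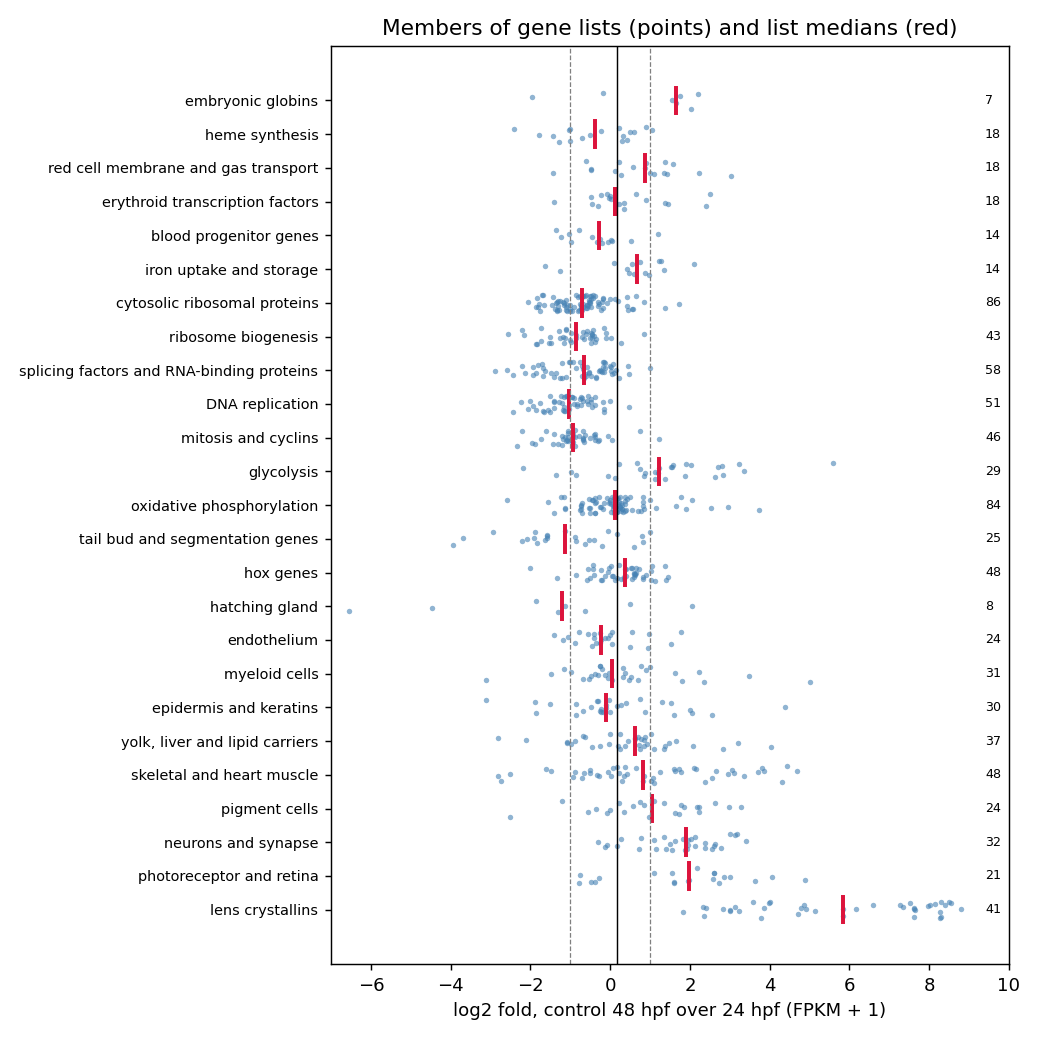
Log2 fold of control 48 hpf over 24 hpf (x axis) of each member averaging 1 FPKM or more in 25 gene lists (y axis). Points are genes, red bars list medians, the solid line the median of all genes (0.18), dashed lines 2-fold and the numbers at right the genes per list; medians run from -1.21 in hatching gland to 5.84 in lens crystallins.

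Some of the highest totals came from very short loci, where a value per length is least certain. Genes with a locus under 500 bases made up 1.14% of total FPKM at 24 hpf and 8.51% at 48 hpf. Among them was zgc:66286 (now myl13), listed on 165 bases, at 12731 FPKM and 109253 FPKM. The micro RNA gene mir181b-1, on 110 bases, was listed at 0 at 24 hpf and at 14949 FPKM at 48 hpf, and mir363, on 128 bases, at 100 FPKM and 0. Leaving out all 268 such genes gave 2487 higher and 1037 lower genes. The intestinal and liver gene fabp1b.1, at 122922 and 187400 FPKM, and zgc:110609 (now commd10), at 12783 and 74219 FPKM, also rank among the 10 most abundant at 48 hpf.

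The foxo3b MO libraries give the same stage difference in a separate pair of libraries that shares none with the control pair, again with 1 at each stage. There 1882 genes (15.7%) were higher at 48 hpf by 2-fold or more and 1376 (11.5%) lower, and the median of all genes was -0.03. Of the control genes higher, 1464 were so in foxo3b MO too, which is 58.3% of the control genes and 77.8% of the foxo3b MO genes. Among lower genes 673 were shared, 64.3% of the control and 48.9% of the foxo3b MO genes. Of all genes past 2-fold in control, 15 higher and 9 lower ones were past 2-fold the opposite way. Across the 11971 genes, which are not independent replicates, the log2 folds of both pairs had a Pearson correlation of 0.80.

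Most list medians had the same sign in both pairs. The foxo3b MO medians were 2.0 for embryonic globins, -0.40 for heme synthesis, 0.79 for red cell membrane and gas transport, -0.76 for DNA replication, -0.62 for cytosolic ribosomal proteins, 1.29 for glycolysis, 1.52 for neuronal genes, 5.77 for lens crystallins and -0.60 for the hatching gland. Lists that stood further apart included the damage response, at -0.75 against -0.00 in control, and retina genes, at 0.75 against 1.97. Some medians had opposite signs on the deposited scale. The median of all genes on that scale was 0.18 in control and -0.03 in foxo3b MO. Erythroid transcription factors had -0.40 in foxo3b MO against 0.13 in control, both below the median of all genes. Notochord, cartilage and matrix genes had -0.10 against 0.54, and Wnt, Fgf, Bmp and Hedgehog ligand genes -0.09 against 0.43. Under equal totals without ribosomal proteins the control medians of these lists were -0.23, 0.13 and 0.07. The globin balance also differed. In foxo3b MO hbbe3 stood at 1815 FPKM and 2207 FPKM and made up 68.1% and 34.5% of the beta FPKM. The alpha to beta ratio was 0.536 and 0.906, and these sums too include genes of the shared globin locus. The gene foxo3b stood at 46.5 and 50.3 FPKM in these libraries, against 6.4 and 38.1 FPKM in control. An MO need not lower its target mRNA, so these levels do not check the knockdown. Whether any of these stage differences depends on the MO was not tested.

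**Figure D5:**
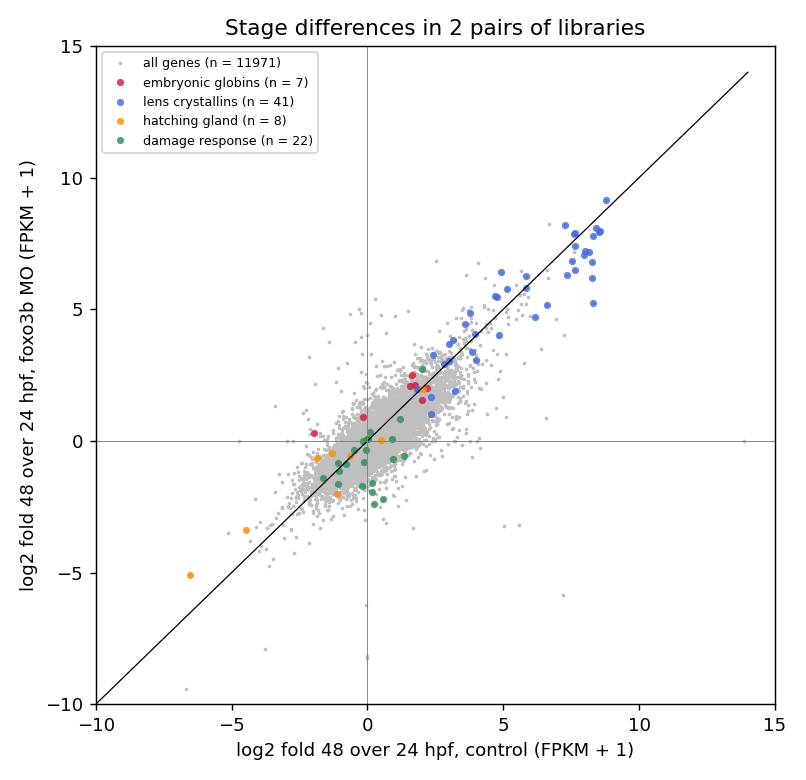
Log2 fold of 48 hpf over 24 hpf in the control libraries (x axis) and in the foxo3b MO libraries (y axis) for 11971 genes, with 4 gene lists in colour and the line of equality. The log2 folds of both pairs had a Pearson correlation of 0.80, which does not measure closeness to that line. The globin gene hbbe3 lies at -1.96 in control and 0.28 in foxo3b MO.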

How the data were processed

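Total RNA of sorted Gata1+ cells was extracted with TRIzol, per the labels. The FPKM values were deposited by the authors after TopHat and Cufflinks on Zv9, per the submitters' processing notes; no version or annotation is named in the sources used here. Low FPKM genes and genes sharing a locus (1436) are least certain. From these values log2((FPKM + 1)/(FPKM + 1)) was computed over the 11971 genes averaging 1 FPKM or more across the 4 libraries. A gene was counted past 2-fold, and no test was run with 1 library per group. Depth relative to 24 hpf came from steps among 391 genes below 0.3 FPKM.

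Of 14417 genes 14134 were matched to current symbols in a zebrafish RefSeq gene table, used for names only. The gene lists (52) and members were chosen with earlier results of these data known. Named genes were gata1a, klf1, tal1, alas2, slc4a1a, sptb, foxo3b and the globins, the 15 highest and 15 lowest log2 folds among genes with a symbol, a control mean of 10 FPKM or more and no 0, the 10 most abundant of each library, up to 5 members per list by size of log2 fold with the most abundant, and up to 5 genes at 0 in either library. Other genes were named after their values were seen. Not all genes the rule takes are printed. The alternatives tried were a pseudocount of 0.1 or 5 FPKM, dropping the floor or raising it to 5 FPKM, a floor on the control libraries, 3 scalings, and leaving out genes at 0 or at shared loci. Leaving out loci under 500 bases was chosen after seeing the data. The steps were tested on simulated data. Software was pandas 2.3.3 and numpy 2.4.6 in Python 3.11.15, with matplotlib 3.10.9.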

Additional observations from a re-analysis of the deposited data

Results flagged for a closer look

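In 7 named genes, all above 0 in the 4 libraries, the stage difference had opposite signs in control and foxo3b MO and the log2 folds lay at least 2 apart. With 1 library per group the difference was not tested. The globin gene hbbe3 had a log2 fold of -1.96 in control and 0.28 in foxo3b MO. Among ribosomal protein genes, zgc:77235 had 1.72 and -0.77, rpl38 1.37 and -1.35, and rpl37 0.42 and -1.83. The insulin gene ins had 0.98 and -1.09, the cartilage gene matn1 2.45 and -0.68, and fgf2 3.84 and -0.60; fgf2 shares a locus of 15 genes, so its value is uncertain.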

How the results depend on the processing

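No paired analysis was possible because each group has 1 library. With a pseudocount of 5 FPKM, 1343 genes were at least 2-fold higher and 643 lower, and with a floor of 5 FPKM 1634 were higher. Equal totals without ribosomal proteins gave 2060 lower genes. The median of all genes was -0.041 under median-ratio scaling and -0.19 under equal totals without ribosomal proteins, and the heme synthesis median was -0.60 and -0.74. The cause was not tested. Of 570 list medians under alternatives, 36 fell below a size of 0.5 and 13 passed it, and none of the medians at least 0.5 in size changed sign. Depth is known only as a ratio, so counting error cannot be given.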

Other observations

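Photolyase and clock genes had a median log2 fold of 0.45 in control and -0.05 in foxo3b MO. The control median was 0.10 under equal totals without ribosomal proteins. Of 30 genes averaging 1 FPKM or more, 9 were higher in control (30%, against 21.0% of all genes) and none lower. The repressor gene nfil3-5 stood at 4.58 FPKM at 24 hpf and 52.4 FPKM at 48 hpf, the nuclear receptor gene nr1d2a at 1.16 and 8.28 FPKM, and per3 at 3.47 and 11.7 FPKM. Clock time at collection is not given in the labels.

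Sterol and lipid genes had a median of 0.55, with 6 of 24 higher and 1 lower. These are 25% and 4.17%, against 21.0% and 8.75% of all genes. Their median was 0.21 under equal totals without ribosomal proteins. The sterol enzyme gene msmo1 stood at 0.469 and 10.1 FPKM and the desaturase gene scdb at 1.90 and 17.6 FPKM. Cytochrome P450 genes had a median of 0.32, which turned to -0.04 under equal totals without ribosomal proteins. The steroid synthesis gene cyp11a1 stood at 21.7 FPKM and 0.410 FPKM, a log2 fold of -4.01, and cyp1c1 at 2.95 and 20.4 FPKM. The liver gene fabp10a stood at 0.355 and 21.1 FPKM in control, and both foxo3b MO libraries list it at 0. Among peptide hormone genes sst1.1, for somatostatin, stood at 2.30 and 16.1 FPKM and gnrh3 at 2.28 and 21.1 FPKM, and trh at 5.94 and 0.829 FPKM.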
